A study of Mus musculus with 46 samples.

Results

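The genes described here are 9 genes of the blood vessel wall that are known for leukocyte capture, cell junctions, clotting and apelin signalling: Selp, Sele, Icam1, Icam2, Vcam1, Pecam1, Cdh5, Vwf and Aplnr. They were chosen by name, as all probe sets that the platform annotation assigns to 1 of these symbols and to no other, which gave 14 probe sets for the 9 genes, of 12393 genes with such a probe set on the array. Their levels were measured in the left ventricle of male mice, 15 to 20 weeks old, of the strains MRL/MpJ (MRL) and C57BL/6J (C57). Hearts were taken at day 0 without an operation, or at day 1 or day 5 after the left coronary artery had been tied off with a suture under isoflurane, with buprenorphine given against pain. Each left ventricle was divided with a biopsy punch into an infarct piece, which the labels describe as infarct and border, and a noninfarct piece. At day 0 the infarct piece was the matching anterior-apical part of an unoperated heart. The groups were MRL infarct, MRL noninfarct, C57 infarct and C57 noninfarct at days 0, 1 and 5, each with 4 arrays, except the C57 day 0 groups with 3, and 46 arrays in all.

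Endothelial cells line the vessels and decide where leukocytes leave the blood. Inflammatory signals bring P-selectin (Selp) and E-selectin (Sele) to the cell surface, where they bind sugar-bearing ligands on leukocytes and make them roll. The immunoglobulin-type molecules ICAM-1 (Icam1), ICAM-2 (Icam2) and VCAM-1 (Vcam1) then bind integrins and arrest the cells. PECAM-1 (Pecam1) and VE-cadherin (Cdh5) sit at the junctions between endothelial cells, through which leukocytes pass. Von Willebrand factor (Vwf) is stored with P-selectin in granules of endothelial cells and platelets and binds platelets to an injured wall. The apelin receptor (Aplnr) is a G protein-coupled receptor of endothelial cells that is known for its part in vessel growth and in cardiac contractility. Several of these genes are also active outside endothelium: Selp, Pecam1 and Vwf in platelets or their precursors, Icam1 and Pecam1 in leukocytes, and Vcam1 in fibroblasts, smooth muscle and macrophages.

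All values are log2 of the deposited intensity of a probe set, and a change is a difference of group means of log2 intensity with its standard error (SE). Each comparison was tested with limma over all probe sets that passed a filter on low values, two-sided, with Benjamini-Hochberg adjustment, and "rose", "fell" or "called" below means an adjusted p under 0.05. Array medians of log2 intensity were between 4.22 and 4.48, and a value below them is near the floor of the method, where a fold is not exact. Where a gene had several probe sets, the one that was highest on average over the 46 arrays stands for it, and the others follow it. Selp and Sele passed the filter in the infarct fit but not in the noninfarct fit, so 7 of the 9 genes were tested there. In the infarct fit Sele passed through 3 day 1 arrays alone (1 of MRL and 2 of C57) and Selp through all 8 day 1 arrays and 1 day 5 array of each strain. In the fit over all 46 arrays the only addition for each was 1 MRL noninfarct array at day 1. Both could thus pass only where they were high. Their calls between day 1 and the other days, and between regions at day 1, are given as values and support nothing on their own. The same holds for the difference of their day 1 changes between regions. All changes from day 0 within a strain and region share the same day 0 arrays, and there were no sham-operated mice, so surgery and infarction cannot be told apart. The tissue was not sorted: fewer cells of a type and less RNA per cell cannot be told apart. The labels call the arrays biological replicates and do not tie the 2 pieces of a heart to each other. The region comparisons treat the pieces as separate, except where the array number is used as a block.

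A few arrays stood apart from their group. MRL infarct day 5 array 3 correlated at 0.987 with the mean of C57 noninfarct day 5 and at 0.889 with the other arrays of its own group. C57 noninfarct day 5 array 3 correlated at 0.983 with MRL infarct day 5 and at 0.905 with its own group, and C57 infarct day 5 array 1 at 0.987 with C57 noninfarct day 5 and at 0.945 with its own group. C57 noninfarct day 5 array 1 correlated at 0.988 with C57 noninfarct day 0 and at 0.936 with its own group. Endothelial markers were present on every array: the log2 of the summed level of 16 of them was between 11.99 and 12.61, and Erg was the one marker below the array medians in every group. Neutrophil markers had a summed log2 level of 10.6 to 11.8 in MRL infarct tissue at day 1, against 5.94 to 6.04 at day 0, and of 12.1 to 12.7 in C57 infarct tissue at day 1, against 5.93 to 6.07 at day 0. At day 1, 6 of the 9 neutrophil markers lay below every array median in MRL infarct tissue, all but S100a8, S100a9 and Lcn2. In C57 infarct tissue 5 of the 9 did, Mmp8 not among them. Macrophage and fibroblast markers were highest at day 5: macrophage markers reached 11.4 to 14.5 in MRL infarct tissue, against 8.77 to 9.01 at day 0, and 13.1 to 14.2 in C57 infarct tissue, against 9.17 to 9.37 at day 0. Their part in the results below was not tested.

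For 3 of the 9 genes the RefSeq table used here gave a promoter, and all 3 are shown for that reason. They are also the genes whose infarct tissue mean was highest at day 1 in both strains. The windows are the 250 bases before the annotated start, in GRCm38.p6, read on the + strand, 5′ to 3′, for Selp at chr1:164115014-164115263, Sele at chr1:164047984-164048233 and Icam1 at chr9:21015690-21015939. Capitals mark 2 motifs, searched on both strands after the sequences had been seen: GGANNTTCC, the short form of a binding sequence of NF-kB (the transcription factor family that inflammatory signals release), and TATAAA, the TATA box.
Selp: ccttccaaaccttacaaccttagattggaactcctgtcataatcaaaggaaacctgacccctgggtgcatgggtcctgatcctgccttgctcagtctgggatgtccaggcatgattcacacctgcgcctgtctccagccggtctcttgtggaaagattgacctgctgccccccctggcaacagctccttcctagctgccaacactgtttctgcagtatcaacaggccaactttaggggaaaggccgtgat
Sele: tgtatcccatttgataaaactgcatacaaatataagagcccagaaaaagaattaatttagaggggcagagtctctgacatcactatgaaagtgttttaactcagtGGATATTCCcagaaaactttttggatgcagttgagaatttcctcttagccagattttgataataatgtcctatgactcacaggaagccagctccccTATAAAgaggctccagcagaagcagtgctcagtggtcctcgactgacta
Icam1: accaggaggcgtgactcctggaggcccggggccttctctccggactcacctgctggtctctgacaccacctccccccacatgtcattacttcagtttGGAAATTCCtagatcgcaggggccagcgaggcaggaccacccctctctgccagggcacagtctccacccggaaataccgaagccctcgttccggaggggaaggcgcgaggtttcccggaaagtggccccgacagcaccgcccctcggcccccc
The Sele window holds GGATATTCC, with its first base at position -145 from the start, and TATAAA at -49. The Icam1 window holds GGAAATTCC at -153, a match on both strands, and the Selp window holds neither motif. Of 32851 mouse promoter windows of this length, 3.59% hold GGANNTTCC and 12.4% hold TATAAA, so a match is a description of these letters and not a binding site. The longer NF-kB consensus, found in 7.25% of the windows, was in 0 of the 3. The Sele window lies within the span that RefSeq gives the gene, chr1:164039614-164058487, which begins upstream of the start used here. Selp spans chr1:164115264-164150026 and is the neighbour of Sele on chromosome 1, and Icam1 spans chr9:21015940-21028814. The other members lie at chr11:106377656-106388139 (Icam2), chr3:116110020-116129688 (Vcam1), chr11:106654213-106715281 (Pecam1), chr8:104101613-104144504 (Cdh5), chr6:125552948-125686679 (Vwf) and chr2:85136360-85139923 (Aplnr).

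**Figure D1:**
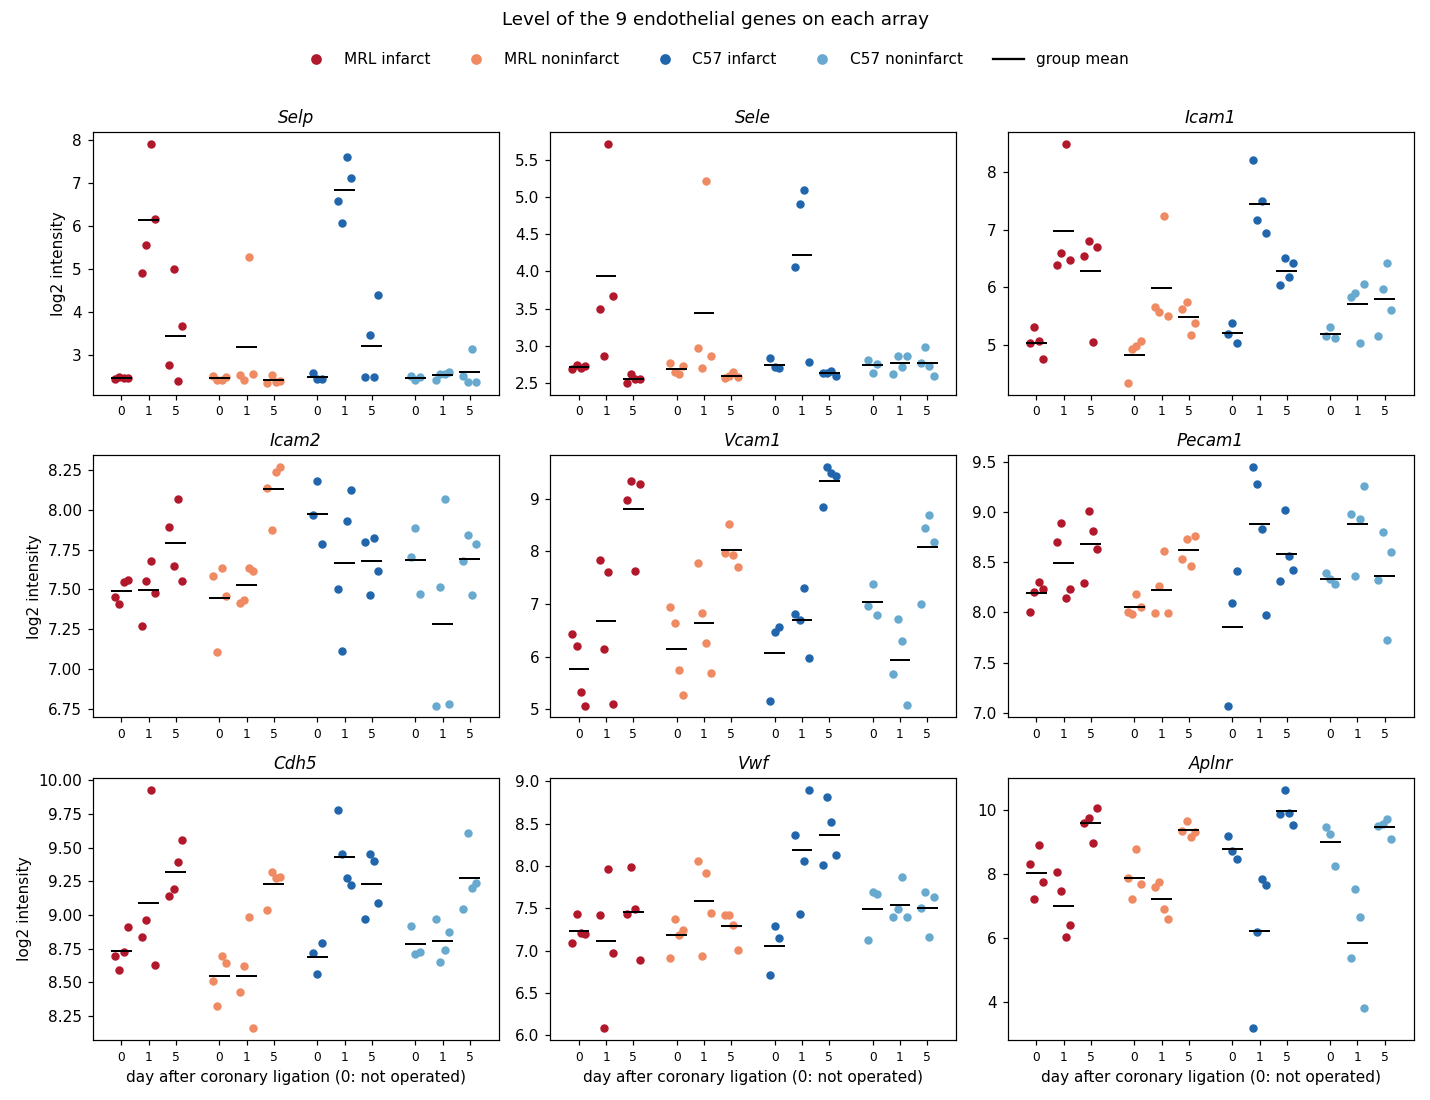
Log2 intensity of the 9 genes on each of the 46 arrays (points) with the group mean (line), by strain and region, against day after ligation (0, 1, 5). Selp, Sele and Icam1 were highest at day 1 in infarct tissue, Vcam1 at day 5, and Aplnr was lower at day 1 than at day 5 in each of the 4 strain and region sets.

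At day 1 the infarct tissue of both strains had more Selp and Icam1 message. MRL infarct tissue had 2 of the 9 genes called higher at day 1 (Selp and Icam1) and 0 lower, where 21.5% of the 12834 tested probe sets were called. C57 infarct tissue had 6 called higher (Selp, Sele, Icam1, Pecam1, Cdh5 and Vwf) and 1 lower (Aplnr) at day 1, with 15.5% of probe sets called. Selp and Sele could pass the filter only where they were high, so these counts are not on the same footing as the shares. Apart from these genes, Icam1 was called higher in MRL, and Icam1, Pecam1, Cdh5 and Vwf in C57. The median change of the 9 genes was 0.36 in MRL and 1.03 in C57 at day 1, against medians of -0.00 and 0.01 over all tested probe sets. The C57 count was 2 without day 0 array 1 or 2, 3 without day 0 array 3 or day 1 array 1 or 3, 4 without day 1 array 2 and 6 without day 1 array 4. Selp and Icam1 were called each time. Without the filter on low values the C57 count was 3, with Sele, Pecam1 (adjusted p = 0.0622), Vwf (adjusted p = 0.0694) and Aplnr (adjusted p = 0.0535) no longer called.

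By day 5 the selectins had no call in either strain and Vcam1 led. MRL infarct tissue had 3 of the 9 genes called higher at day 5 than at day 0 (Icam1, Vcam1 and Cdh5) with 46.9% of probe sets called, and C57 infarct tissue had 2 (Vcam1 and Vwf) with 42.7% called, so the share of members called was below that of the array in both. The median change of the 9 genes was 0.59 in MRL and 0.72 in C57, against -0.05 and -0.00 over all tested probe sets. The C57 count was 4 without day 5 array 1, which adds Icam1 and Cdh5, and the MRL count was 1 without day 5 array 4. In the noninfarct region, 0 of the 7 tested genes were called in MRL at day 1 (limma; 1 had an unadjusted p under 0.05; 0.98% of probe sets called) and 1 in C57, Aplnr, which was lower (3.99% called). At day 5 the noninfarct region of MRL had 5 of 7 called higher (Icam2, Vcam1, Pecam1, Cdh5 and Aplnr; 24.2% of probe sets called), and that of C57 had 1, Cdh5 (21.1% called). The MRL count of 5 was 3 without day 0 array 1 or day 5 array 2, and 2 without day 0 array 2 or 4 or day 5 array 1, 3 or 4. The C57 count was 2 without day 5 array 1, which adds Vcam1, and 0 without any other of its arrays.

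**Figure D2:**
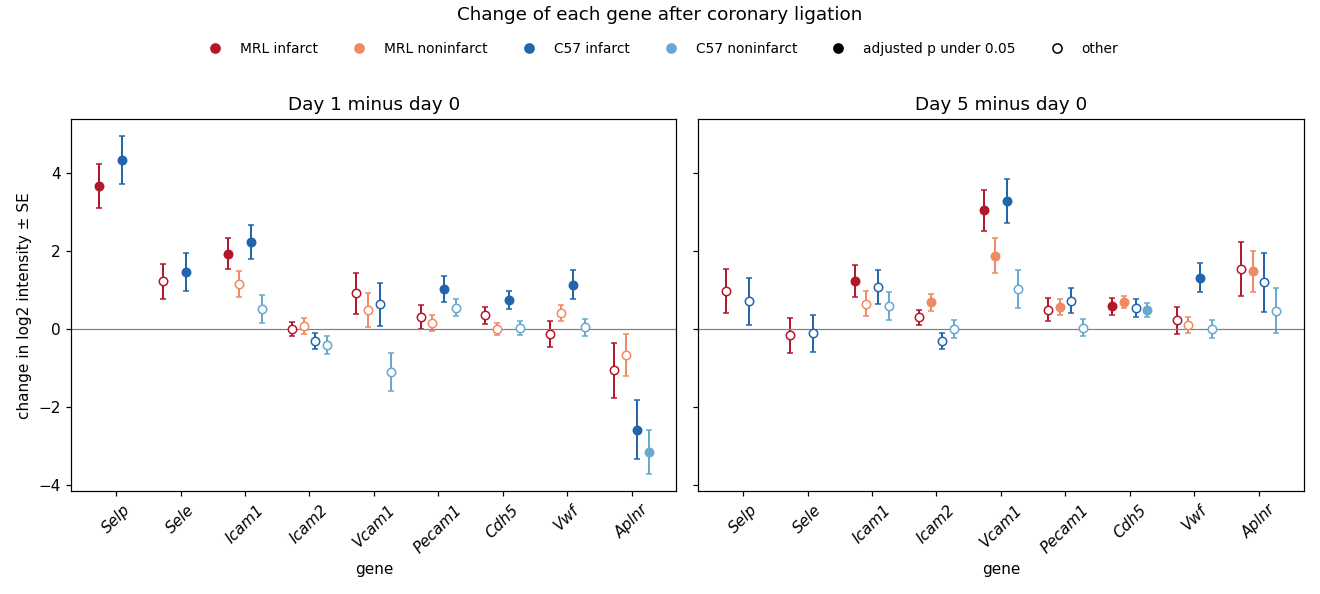
Change in log2 intensity from day 0 (± SE) of each gene at day 1 (left) and day 5 (right) in MRL infarct, MRL noninfarct, C57 infarct and C57 noninfarct tissue, with filled points for an adjusted p under 0.05. Selp leads at day 1 (3.66 in MRL and 4.33 in C57 infarct tissue), Vcam1 at day 5 (3.04 and 3.28), and Aplnr is the one gene called lower at day 1, in C57 tissue.

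Selp, which encodes P-selectin, had the largest rise of the 9 genes in log2 intensity taken as it is. That rank starts from a day 0 level at the floor and depends on the scale. Its log2 intensity (probe set 1449906_at) was 4.92, 5.57, 7.90 and 6.17 on the 4 MRL infarct arrays at day 1, against 2.46, 2.49, 2.48 and 2.48 at day 0. In C57 infarct tissue it was 6.58, 6.07, 7.60 and 7.11 at day 1, against 2.60, 2.46 and 2.46 at day 0. Every day 1 array lay well above every day 0 array, and the day 0 arrays lay at the floor. The rise was 3.66 ± 0.56 in MRL (adjusted p = 0.000144) and 4.33 ± 0.61 in C57 (adjusted p = 5.88e-05), or 12.7-fold and 20.1-fold in log2 intensity taken as it is. Since the day 0 values sit at the floor these folds depend on the scale: with 32 added to each intensity they were 2.89-fold (adjusted p = 0.00257) and 3.94-fold (adjusted p = 0.000731). The second Selp probe set, 1420558_at, rose by 3.05 ± 0.45 in MRL and by 3.39 ± 0.49 in C57.

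Selp fell between day 1 and day 5 in both strains. On the day 5 infarct arrays Selp was 2.77, 5.00, 2.40 and 3.68 in MRL and 2.49, 3.48, 2.50 and 4.40 in C57. In each strain some arrays were at the floor and others were not. Day 5 minus day 1 was -2.68 ± 0.56 in MRL (adjusted p = 0.00167) and -3.62 ± 0.56 in C57 (adjusted p = 7.01e-05), and MRL day 5 array 2 overlapped the day 1 range. Against day 0, the day 5 level was 0.99 higher in MRL (adjusted p = 0.157) and 0.71 higher in C57 (adjusted p = 0.356), neither called.

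At day 1 Selp was higher in the infarct piece than in the noninfarct piece of both strains. In MRL the infarct arrays read 4.92 to 7.90, against 2.54, 2.44, 5.29 and 2.57 on the noninfarct arrays, and noninfarct array 3 lay within the infarct range. In C57 the infarct arrays read 6.07 to 7.60, against 2.44, 2.57, 2.58 and 2.61 on the noninfarct arrays, with no overlap. The region difference was 2.93 ± 0.51 in MRL (7.64-fold, adjusted p = 0.000799) and 4.29 ± 0.51 in C57 (19.6-fold, adjusted p = 1.5e-06). The change from day 0 in infarct tissue exceeded that in noninfarct tissue by 2.92 ± 0.72 in MRL (95% interval 1.47 to 4.37, adjusted p = 0.117) and by 4.27 ± 0.77 in C57 (95% interval 2.70 to 5.83, adjusted p = 0.0146). The MRL excess was called without noninfarct day 1 array 3 (3.61, adjusted p = 0.00568) or without infarct day 1 array 1 (3.33, adjusted p = 0.0142). The C57 call was lost without infarct day 1 array 3 (adjusted p = 0.0611), infarct day 0 array 3 (0.0688) or noninfarct day 0 array 1 (0.0505). With the array number as a block the MRL excess was called as well (adjusted p = 0.00605); all 4 pairs of same-numbered MRL day 1 arrays deviated together. The second Selp probe set, 1420558_at, gave an excess that was called in both strains, at 2.55 ± 0.54 in MRL (adjusted p = 0.0445) and 3.15 ± 0.59 in C57 (adjusted p = 0.0146).

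Platelets also store P-selectin, and their markers moved at the same time. The summed log2 level of the 7 platelet markers on the array was 8.34 to 10.7 in MRL infarct tissue at day 1, against 7.17 to 7.36 at day 0, and 8.97 to 10.8 in C57 infarct tissue, against 7.86 to 8.20. At day 1, 5 of the 7 lay below every array median, all but Pf4 and Ppbp. At day 5, when Selp had fallen, the platelet sum was 8.37 to 9.74 in MRL and 9.76 to 10.99 in C57 infarct tissue. Their part in the Selp result was not tested.

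Sele, which encodes E-selectin, the selectin of activated endothelium, was near the floor in most groups and its day 1 change was less certain. Its log2 intensity (1421712_at) was 3.49, 2.86, 5.71 and 3.67 in MRL infarct tissue at day 1, against 2.68, 2.74, 2.71 and 2.72 at day 0. C57 infarct tissue read 4.06, 4.91, 5.10 and 2.79 at day 1, against 2.84, 2.71 and 2.70 at day 0. MRL day 1 arrays all lay above day 0, while C57 day 1 array 4 lay among its day 0 arrays, and every group mean lay below every array median. The change was 1.22 ± 0.45 in MRL (adjusted p = 0.0561) and 1.47 ± 0.48 in C57 (2.77-fold, adjusted p = 0.0438). The C57 call was lost with 32 added before log2 (0.45, adjusted p = 0.121), without the filter on low values (adjusted p = 0.0872), without day 1 array 1 (0.0517) and without day 0 array 1 (0.0926), 2 (0.117) or 3 (0.112). Without day 1 array 2 or 3, Sele did not pass the filter. In MRL the change was called without day 1 array 1 (1.37, adjusted p = 0.0482) or array 2 (1.58, adjusted p = 0.0264).

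At day 5 Sele lay just below its lowest day 0 value on every infarct array. Infarct values were 2.50, 2.62, 2.55 and 2.55 in MRL and 2.64, 2.63, 2.66 and 2.60 in C57. Between the operated days, in a gene that passed the filter through day 1 arrays alone, the change was -1.38 ± 0.45 in MRL (adjusted p = 0.0267) and -1.58 ± 0.45 in C57 (adjusted p = 0.0111), with neither called after 32 was added (adjusted p = 0.0915 and 0.051). The MRL fall was not called without day 5 array 1 (0.0607), 2 (0.0531) or 4 (0.0576). In noninfarct tissue at day 1 Sele read 2.97, 2.70, 5.22 and 2.86 in MRL and 2.62, 2.87, 2.71 and 2.86 in C57. The high MRL array is number 3, the same number that was high for Selp in both regions.

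Icam1, the ligand of the leukocyte integrins LFA-1 and Mac-1, rose in the infarct tissue of both strains. Its log2 intensity (1424067_at) was 6.39, 6.60, 8.47 and 6.47 in MRL infarct tissue at day 1, against 5.03, 5.32, 5.07 and 4.76 at day 0. In C57 infarct tissue it was 8.20, 7.17, 7.49 and 6.94 at day 1, against 5.20, 5.39 and 5.04 at day 0. The day 1 arrays lay above all day 0 arrays in both strains, with MRL array 3 well above its group. The rise was 1.93 ± 0.40 in MRL (3.82-fold, adjusted p = 0.00226) and 2.24 ± 0.43 in C57 (4.72-fold, adjusted p = 0.0014). Without the arrays numbered 3 of both regions the MRL rise was 1.44 (adjusted p = 0.00529).

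Icam1 remained above day 0 on most day 5 arrays. It read 6.54, 6.81, 5.07 and 6.70 in MRL infarct tissue and 6.04, 6.50, 6.18 and 6.42 in C57 infarct tissue at day 5. The low MRL array is array 3, which stood apart as a whole, and it overlapped day 0. The day 5 change was 1.23 ± 0.40 in MRL (adjusted p = 0.0159) and 1.08 ± 0.43 in C57 (adjusted p = 0.0503). Leaving out both day 5 arrays numbered 3 that stood apart, these were called in both strains, at 1.63 in MRL (adjusted p = 0.000852) and with an adjusted p of 0.0219 in C57. The MRL call was lost without day 5 array 2 (0.0583) or 4 (0.0527), and the C57 change was called without day 5 array 1 (0.0489). Day 5 minus day 1 was -0.70 in MRL (adjusted p = 0.187) and -1.16 in C57 (adjusted p = 0.0305). The C57 call was lost without day 1 array 1 (0.112) or day 5 array 1 (0.0564), 3 (0.0644) or 4 (0.0533).

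Noninfarct Icam1 was less certain. At day 1 it read 5.67, 5.58, 7.23 and 5.51 in MRL, against 4.36, 4.94, 5.00 and 5.08 at day 0, and 5.83, 5.90, 5.05 and 6.06 in C57, against 5.17, 5.32 and 5.12 at day 0. All 4 MRL arrays lay above day 0, and C57 array 3 lay below it. The change was 1.15 ± 0.32 in MRL (adjusted p = 0.0935) and 0.51 in C57 (adjusted p = 0.493). With those day 5 arrays left out the MRL value was called (adjusted p = 0.0477), and it was 0.74 (adjusted p = 0.264) without the arrays numbered 3 of both regions. At day 5 it was 0.64 in MRL (adjusted p = 0.145) and 0.59 in C57 (adjusted p = 0.226). Infarct minus noninfarct at day 1 was 0.98 in MRL (adjusted p = 0.085) and 1.74 ± 0.38 in C57 (3.33-fold, adjusted p = 0.004).

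Icam2, which resting endothelium carries and which also binds LFA-1, had no call in infarct tissue. Its infarct tissue levels (1448862_at) were 7.27 to 7.68 at day 1 and 7.55 to 8.07 at day 5 in MRL, against 7.41 to 7.56 at day 0, and 7.12 to 8.13 at day 1 and 7.47 to 7.82 at day 5 in C57, against 7.78 to 8.18 at day 0. These ranges overlap. The changes were 0.00 at day 1 (adjusted p = 0.993) and 0.30 at day 5 (adjusted p = 0.199) in MRL, and -0.31 (adjusted p = 0.329) and -0.30 (adjusted p = 0.239) in C57. In the noninfarct region of MRL at day 5 Icam2 was 8.14, 7.87, 8.24 and 8.27, against 7.59, 7.11, 7.64 and 7.46 at day 0, a rise of 0.68 ± 0.22 (adjusted p = 0.0262). All 4 arrays were above day 0, but the call was lost without day 0 array 2 (0.0882) or 4 (0.0518) or day 5 array 1 (0.0513), 3 (0.0605) or 4 (0.0645). C57 noninfarct Icam2 changed by -0.40 at day 1 (adjusted p = 0.39) and by 0.01 at day 5, neither called.

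Vcam1, the ligand of the integrin VLA-4 of monocytes and lymphocytes, came later. In MRL infarct tissue its log2 intensity (1448162_at) was 6.43, 6.20, 5.32 and 5.07 at day 0, 7.83, 6.15, 7.60 and 5.10 at day 1 and 8.97, 9.33, 7.62 and 9.27 at day 5. In C57 infarct tissue it was 5.16, 6.46 and 6.56 at day 0, 6.81, 6.69, 7.31 and 5.96 at day 1 and 8.83, 9.60, 9.49 and 9.44 at day 5. Day 1 overlapped day 0 in both strains, and every day 5 array lay above every day 0 array. The day 5 rise was 3.04 ± 0.52 in MRL (8.23-fold, adjusted p = 0.000116) and 3.28 ± 0.56 in C57 (9.69-fold, adjusted p = 0.000165), and 3.43 in MRL (adjusted p = 1.29e-05) with both of those day 5 arrays left out. At day 1 the change was 0.91 in MRL (adjusted p = 0.211) and 0.63 in C57 (adjusted p = 0.482). The difference of day 5 from day 1 was 2.13 ± 0.52 in MRL (adjusted p = 0.00494) and 2.65 ± 0.52 in C57 (adjusted p = 0.000681).

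The noninfarct region of MRL also had more Vcam1 at day 5. The gene read 7.97, 8.52, 7.92 and 7.71 in MRL at day 5, against 6.93, 6.65, 5.75 and 5.27 at day 0, and 7.00, 8.43, 8.69 and 8.18 in C57, against 6.96, 7.37 and 6.80. The groups were apart in MRL and overlapped in C57 through array 1. The change was 1.88 ± 0.45 in MRL (3.68-fold, adjusted p = 0.00481) and 1.03 ± 0.48 in C57 (adjusted p = 0.125). The C57 change was called without day 5 array 1 (1.39, adjusted p = 0.0255). At day 1 the C57 noninfarct arrays read 5.67, 6.71, 6.29 and 5.08, all below day 0, with a change of -1.11 that was not called (adjusted p = 0.218). Relative to day 1, day 5 was higher by 1.39 ± 0.45 in MRL (adjusted p = 0.0462) and 2.14 ± 0.45 in C57 (adjusted p = 0.00231). The MRL call was lost without any of 7 of its 8 arrays, day 1 array 1 being the exception, with adjusted p values up to 0.173.

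The 3 Vcam1 probe sets differed from each other. Probe set 1415989_at, which lay near or below the array medians at day 0, rose at day 5 by 1.80 in MRL infarct tissue (adjusted p = 0.000308) and by 1.99 in C57 infarct tissue (adjusted p = 0.000348), and in noninfarct tissue by 0.80 in MRL (adjusted p = 0.0283) and 1.03 in C57 (adjusted p = 0.015). Probe set 1451314_a_at changed by 0.13 in MRL and -0.03 in C57 infarct tissue at day 5, neither called. It rose by 0.52 ± 0.19 in MRL infarct tissue at day 1 (adjusted p = 0.0486). Which transcripts each probe set reads was not examined.

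**Figure D3:**
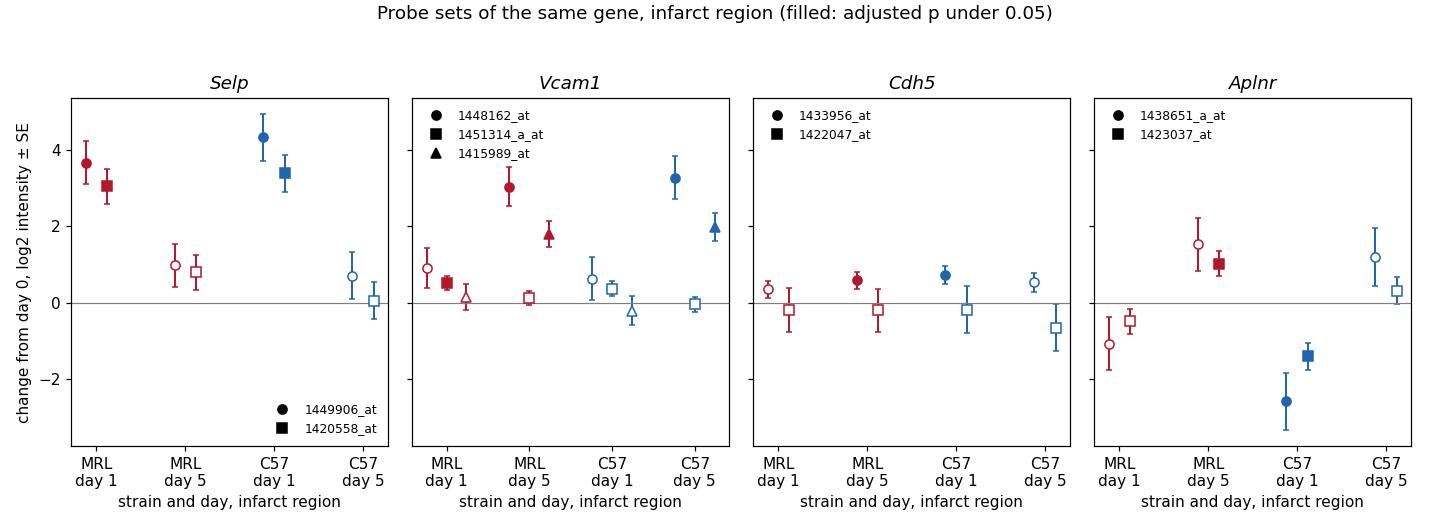
Change in log2 intensity from day 0 (± SE) in infarct tissue for each probe set of the 4 genes with more than 1, MRL in red and C57 in blue at days 1 and 5, filled where the adjusted p was under 0.05. The probe sets of Selp and of Aplnr moved in the same direction, whereas 1451314_a_at of Vcam1 and 1422047_at of Cdh5 did not follow the probe set with the higher mean.

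Pecam1 and Cdh5, the junction genes, differed from day 0 by at most 1.03 log2 units in any group. Pecam1 (1421287_a_at) was 8.70, 8.89, 8.14 and 8.23 in MRL infarct tissue at day 1, against 8.01, 8.21, 8.31 and 8.24 at day 0, and 9.45, 9.28, 8.83 and 7.97 in C57 infarct tissue, against 7.07, 8.09 and 8.41 at day 0. The groups overlapped in both strains, and C57 day 0 array 1 was low. The change was 0.30 in MRL (adjusted p = 0.49) and 1.03 ± 0.32 in C57 (2.04-fold, adjusted p = 0.035). Without C57 day 0 array 1 it was 0.63 (adjusted p = 0.226), and the call was also lost without the filter on low values (0.0622), without day 0 array 2 (0.0615) or day 1 array 1 (0.0861), 2 (0.0773) or 3 (0.0651). At day 5 the infarct change was 0.50 in MRL (adjusted p = 0.179) and 0.72 in C57 (adjusted p = 0.0768). In noninfarct tissue Pecam1 changed by 0.16 at day 1 in MRL and by 0.55 in C57 (adjusted p = 0.177), neither called. At day 5 the MRL noninfarct level was 8.54, 8.73, 8.47 and 8.76, against 8.01, 7.99, 8.18 and 8.05 at day 0, with no overlap and a rise of 0.56 ± 0.20 (adjusted p = 0.047). Leaving out any of these 8 arrays lost that call, with adjusted p values of 0.0553 to 0.118.

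Cdh5 (1433956_at) was 8.84, 8.96, 9.93 and 8.63 in MRL infarct tissue at day 1, against 8.69, 8.59, 8.73 and 8.91 at day 0, and 9.78, 9.45, 9.28 and 9.22 in C57 infarct tissue, against 8.72, 8.56 and 8.79 at day 0. C57 day 1 lay wholly above day 0 and MRL overlapped. The change was 0.36 in MRL (adjusted p = 0.248) and 0.74 ± 0.24 in C57 (1.67-fold, adjusted p = 0.0367). The C57 call was lost without any of its 7 arrays but day 1 array 4, with adjusted p values up to 0.133. At day 5 Cdh5 was 9.14, 9.19, 9.39 and 9.55 in MRL infarct tissue, all above day 0, a rise of 0.59 ± 0.22 (adjusted p = 0.0322). It was 0.56 (adjusted p = 0.0535) without day 5 array 3, and the call was also lost without day 0 array 1 (0.0634), 2 (0.0787) or 3 (0.0589) or day 5 array 4 (0.0946). The day 5 change in C57 infarct tissue was 0.54 (adjusted p = 0.0725), and 0.62 without day 5 array 1 (adjusted p = 0.049).

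In the noninfarct region Cdh5 rose at day 5 in both strains. It was 9.03, 9.32, 9.28 and 9.28 in MRL at day 5, against 8.51, 8.33, 8.70 and 8.64 at day 0, and 9.04, 9.61, 9.20 and 9.24 in C57, against 8.92, 8.71 and 8.72. All day 5 arrays lay above all day 0 arrays. The rise was 0.68 ± 0.16 in MRL (adjusted p = 0.00357) and 0.49 ± 0.17 in C57 (adjusted p = 0.0442). The C57 call was lost without any of its 7 arrays but day 5 array 1, with adjusted p values of 0.0593 to 0.128, while the MRL call was kept without each of its arrays. Relative to day 1, it was higher by 0.68 ± 0.16 in MRL (adjusted p = 0.00651) and 0.46 ± 0.16 in C57 (adjusted p = 0.0378). The second Cdh5 probe set, 1422047_at, was called in 0 of the comparisons and had day 5 infarct changes of -0.19 in MRL and -0.65 in C57, opposite in sign to those of 1433956_at.

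Vwf was called higher in the infarct tissue of C57 and not in that of MRL, and the difference between the strains was not called. Its log2 intensity (1435386_at) was 7.43, 6.08, 7.97 and 6.98 at day 1 and 7.43, 7.99, 7.49 and 6.89 at day 5 in MRL infarct tissue, against 7.09, 7.43, 7.21 and 7.20 at day 0. C57 infarct tissue read 8.37, 7.43, 8.06 and 8.90 at day 1 and 8.02, 8.81, 8.52 and 8.12 at day 5, against 6.71, 7.29 and 7.15 at day 0. Every operated C57 array lay above its day 0 arrays, and the MRL arrays lay on both sides of theirs. The change was -0.12 at day 1 (adjusted p = 0.833) and 0.22 at day 5 (adjusted p = 0.614) in MRL, and 1.14 ± 0.36 (2.2-fold, adjusted p = 0.0369) and 1.32 ± 0.36 (2.49-fold, adjusted p = 0.0067) in C57. The day 1 call of C57 was lost without any of its 7 arrays but day 1 array 2, with adjusted p values up to 0.143, and without the filter on low values (0.0694), and the day 5 call was kept without each of its arrays.

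The test of the strain difference itself did not pass for Vwf. MRL minus C57 in infarct tissue was -1.08 at day 1 (95% interval -1.78 to -0.38, adjusted p = 0.181) and -0.92 at day 5 (adjusted p = 0.485), where the 2 strains did not overlap. It was called at day 1 without MRL day 1 array 3 (-1.36, adjusted p = 0.0387). The difference of the changes was -1.26 at day 1 (95% interval -2.29 to -0.23, adjusted p = 0.9996) and -1.10 at day 5 (95% interval -2.13 to -0.07, adjusted p = 0.9999). Noninfarct Vwf changed by 0.41 at day 1 (adjusted p = 0.434) and 0.11 at day 5 in MRL, and by 0.04 and 0.00 in C57, none called. In C57 at day 5 infarct exceeded noninfarct tissue by 0.87 ± 0.29 (adjusted p = 0.04999), with no overlap. That call was lost without any of 7 of its 8 arrays, infarct day 5 array 1 being the exception, with adjusted p values up to 0.221.

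Aplnr was higher at day 5 than at day 1 in every strain and region, and it fell at day 1 in C57 hearts, in both regions. In MRL infarct tissue Aplnr was 8.31, 7.21, 8.90 and 7.76 at day 0, 8.05, 7.46, 6.02 and 6.39 at day 1 and 9.58, 9.74, 8.96 and 10.05 at day 5. In MRL noninfarct tissue it was 7.87, 7.21, 8.78 and 7.68 at day 0, 7.60, 7.75, 6.91 and 6.58 at day 1 and 9.33, 9.64, 9.16 and 9.31 at day 5. Day 1 overlapped day 0 and day 5 lay above both. The day 1 change was -1.06 in infarct (adjusted p = 0.282) and -0.67 in noninfarct tissue (adjusted p = 0.676). The day 5 change was 1.54 ± 0.70 in infarct (adjusted p = 0.0759) and 1.48 ± 0.53 in noninfarct tissue (adjusted p = 0.0479), while that of C57 was 1.20 (adjusted p = 0.203) and 0.47 (adjusted p = 0.573). The MRL infarct value was called with 32 added before log2 (1.42, adjusted p = 0.0203), and the MRL noninfarct call was lost without any of its 8 arrays but day 0 array 3, with adjusted p values up to 0.13.

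The day 1 fall of Aplnr was found in C57. In C57 infarct tissue its log2 intensity (1438651_a_at) was 9.18, 8.71 and 8.48 at day 0, 3.17, 6.18, 7.84 and 7.65 at day 1 and 9.89, 10.63, 9.90 and 9.52 at day 5. In C57 noninfarct tissue it was 9.48, 9.24 and 8.24 at day 0, 5.36, 7.54, 6.64 and 3.81 at day 1 and 9.49, 9.57, 9.71 and 9.08 at day 5. Every C57 day 1 array lay below every day 0 array, with a wide spread at day 1. The day 1 change was -2.58 ± 0.75 in infarct tissue (5.97-fold lower, adjusted p = 0.0234) and -3.15 ± 0.57 in noninfarct tissue (8.9-fold lower, adjusted p = 0.00325). The infarct call was lost without day 0 array 1 (0.086), 2 (0.0676) or 3 (0.0529), and without the filter on low values (0.0535). Without day 1 array 1, the lowest, the infarct change was -1.56. The noninfarct call was kept without each of its arrays.

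Between day 1 and day 5 Aplnr was called in all 4 strain and region sets. Day 5 minus day 1 was 2.60 ± 0.70 in MRL infarct (6.06-fold, adjusted p = 0.00938), 3.77 ± 0.70 in C57 infarct (13.7-fold, adjusted p = 0.000397), 2.15 ± 0.53 in MRL noninfarct (4.43-fold, adjusted p = 0.0112) and 3.63 ± 0.53 in C57 noninfarct tissue (12.4-fold, adjusted p = 0.000127). These 4 calls were kept without each of their arrays. The second Aplnr probe set, 1423037_at, had the same pattern: at day 1 it fell by 1.39 in C57 infarct (adjusted p = 0.0108) and by 1.41 in C57 noninfarct tissue (adjusted p = 0.0246), with MRL changes of -0.48 and -0.31 that were not called. At day 5 it rose by 1.03 in MRL infarct (adjusted p = 0.0138) and by 1.15 in MRL noninfarct tissue (adjusted p = 0.0125). Apln, the apelin peptide gene and the only other gene of the apelin system that was tested, had day 1 infarct changes of 0.79 in MRL (adjusted p = 0.134) and 0.96 in C57 (adjusted p = 0.114), opposite in sign to those of its receptor and not called.

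Day 5 was also compared with day 1 among the operated groups. Both Selp probe sets and that of Sele passed the infarct filter mostly or only through day 1 arrays. Their falls are thus given as values and support nothing on their own. Day 5 minus day 1 in infarct tissue was called higher for Vcam1 and Aplnr and lower for Selp and Sele in MRL (30.1% of probe sets called), and higher for Vcam1 and Aplnr and lower for Selp, Sele and Icam1 in C57 (34.2% called). In noninfarct tissue Vcam1, Cdh5 and Aplnr were called higher at day 5 than at day 1 in MRL (12% called) and in C57 (22.4% called), 3 of 7 tested in each. The second probe sets of Selp and Aplnr and probe set 1415989_at of Vcam1 were called in the same direction in each of these comparisons in which they were tested. Probe set 1451314_a_at of Vcam1 went the other way and was not called. It changed by -0.39 in MRL and -0.41 in C57 infarct tissue, and by -0.44 and -0.25 in noninfarct tissue. The second Cdh5 probe set changed by 0.22 in MRL and 0.26 in C57 noninfarct tissue, neither called. The median of the members was 0.23 in MRL infarct, -0.21 in C57 infarct, 0.60 in MRL noninfarct and 0.41 in C57 noninfarct tissue, against -0.04, -0.03, -0.04 and -0.06 over all tested probe sets. The Cdh5 value of C57 was not called without day 1 array 2 (0.0831), 3 (0.0788) or 4 (0.0567) or day 5 array 2 (0.116), 3 (0.06) or 4 (0.0628).

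Setting the other genes against Cdh5, as a gene of the endothelium itself, asks which changed more than it did. Each array's log2 Cdh5 (1433956_at) was subtracted from every probe set, so that the value is a ratio to Cdh5 and not a level per endothelial cell. The median over all tested probe sets then moved to -0.36 at day 1 and -0.64 at day 5 in MRL, and to -0.73 at day 1 and -0.54 at day 5 in C57. The median of the 8 other genes was 0.25 and 0.15 in MRL and 0.34 and 0.36 in C57 on those days. Of the 8 other genes, Selp (3.31 ± 0.52, adjusted p = 0.000125) and Icam1 (1.58 ± 0.34, adjusted p = 0.00262) rose at day 1 in MRL, with 23.6% of probe sets called. In C57 at day 1 Selp (3.59 ± 0.56, adjusted p = 0.000126) and Icam1 (1.50 ± 0.37, adjusted p = 0.00398) rose, while Icam2 (-1.05 ± 0.33, adjusted p = 0.0155) and Aplnr (-3.32 ± 0.80, adjusted p = 0.00349) fell, with 41.8% called. The C57 changes of Pecam1 (0.29, adjusted p = 0.521), Vwf (0.40, adjusted p = 0.374) and Sele (0.73, adjusted p = 0.145) were not called on this scale. Sele was called without day 1 array 4 (1.13, adjusted p = 0.0255), and Icam2 was not without day 1 array 1 (0.0533) or 2 (0.0521) or day 0 array 2 (0.0863). As log2 intensity Icam2 was not called in C57 at day 1, and its ratio includes the change of Cdh5.

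At day 5 Vcam1 rose relative to Cdh5 in both strains, by 2.45 ± 0.48 in MRL (adjusted p = 0.000217) and by 2.74 ± 0.52 in C57 (adjusted p = 0.000289). Vcam1 was the one gene called in MRL, where 55.8% of probe sets were called. In C57 the ratio of Icam2 to Cdh5 fell as well (-0.84 ± 0.33, adjusted p = 0.0393, 46.5% called). As log2 intensity Icam2 was not called there, and the ratio includes the change of Cdh5. The second Cdh5 probe set, opposite in sign at day 5, was not used as the divisor. The Icam2 call was lost without day 0 array 1 (0.0828) or 2 (0.166) or day 5 array 2 (0.122), 3 (0.0719) or 4 (0.058). Icam1 relative to Cdh5 was 0.64 in MRL at day 5 (adjusted p = 0.111), and 1.07 without MRL day 5 array 3 (adjusted p = 0.00412).

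**Figure D4:**
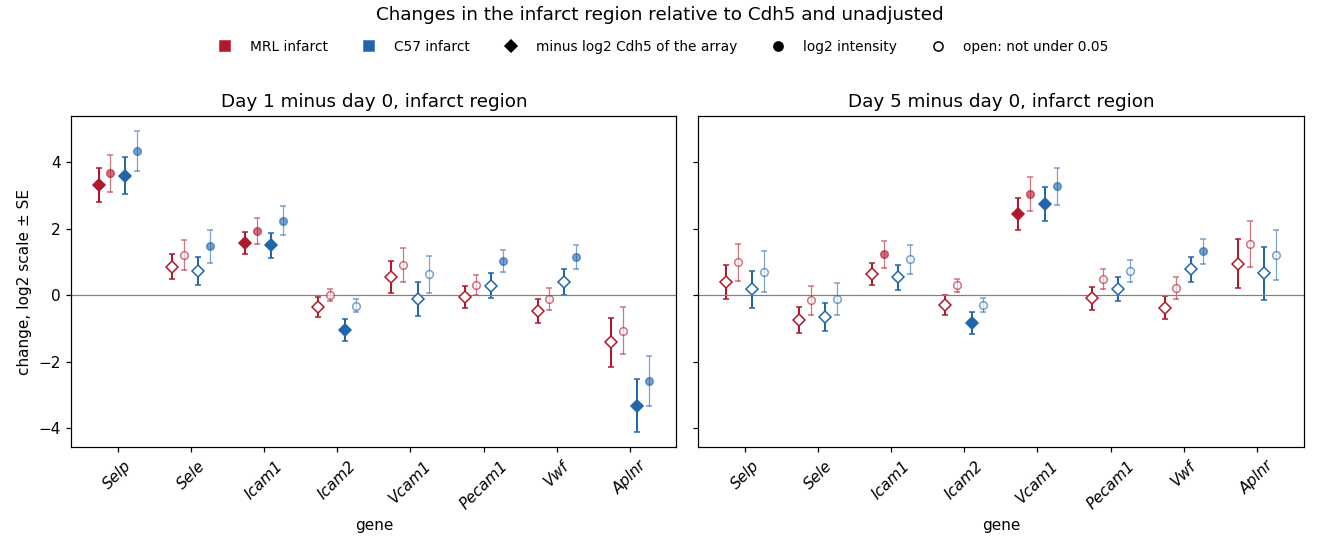
Change from day 0 (± SE, log2 scale) in infarct tissue for 8 genes, as a ratio to Cdh5 of the same array (diamonds) and as log2 intensity (circles), MRL in red and C57 in blue, day 1 on the left and day 5 on the right, filled where the adjusted p was under 0.05. Selp and Icam1 at day 1 and Vcam1 at day 5 were called in both strains as a ratio to Cdh5.

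The strains were compared directly on each day. MRL minus C57 was called for 0 of 9 genes in infarct tissue at day 0 (limma; 1 with an unadjusted p under 0.05; 1.07% of probe sets called), at day 1 (1 unadjusted; 0.997% called) and at day 5 (1 unadjusted; 0.686% called). In noninfarct tissue 0 of 7 were called at day 0 (0 unadjusted; 1.8% called), day 1 (2 unadjusted; 2.77% called) and day 5 (0 unadjusted; 1.25% called). The change in MRL minus the change in C57 was called for 0 genes in infarct tissue at day 1 (1 unadjusted; 0.0468% called) and day 5 (2 unadjusted; 0.156% called) and in noninfarct tissue at day 1 (2 unadjusted; 0.0081% called) and day 5 (1 unadjusted; 0.0081% called). These intervals are wide, and a gene called in one strain alone is not thereby different between them. For Selp in infarct tissue at day 1 the difference of the changes had a 95% interval of -2.39 to 1.06, and for Icam1 of -1.53 to 0.92.

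The strain values with an unadjusted p under 0.05 were those of Vwf, given above, and of Pecam1, Aplnr, Vcam1 and Icam2. Pecam1 in noninfarct tissue at day 1 was 7.99, 8.27, 8.61 and 8.00 in MRL and 8.98, 8.36, 8.93 and 9.26 in C57, a difference of -0.66 ± 0.20 (adjusted p = 0.0873). It was called without C57 day 1 array 2 (-0.84, adjusted p = 0.0181) or without MRL day 1 array 3 (-0.80, adjusted p = 0.0399). Aplnr in the same tissue was 1.38 higher in MRL (95% interval 0.27 to 2.48, adjusted p = 0.213), and 1.94 without C57 array 2 (adjusted p = 0.0235). On its second probe set, 1423037_at, MRL minus C57 there was -0.14 (adjusted p = 0.945), with no such excess. The change of Aplnr there in MRL exceeded that in C57 by 2.48 (95% interval 0.86 to 4.11). That of Vcam1 did so by an amount with a 95% interval of 0.23 to 2.96, with an adjusted p of 1 for both. On the other probe sets this difference was 1.09 for Aplnr (1423037_at), and 0.44 (1415989_at) and -0.02 (1451314_a_at) for Vcam1, none called. For Icam2 in infarct tissue at day 0 MRL minus C57 was -0.49 (95% interval -0.91 to -0.06, adjusted p = 0.597), with no overlap of the arrays. Its day 5 change in MRL exceeded that in C57 by 0.60 in infarct and 0.68 in noninfarct tissue, with adjusted p values of 0.9999 and 1. The second Aplnr probe set, 1423037_at, was lower in MRL than in C57 at day 0, by 0.92 in infarct (adjusted p = 0.455) and 1.23 in noninfarct tissue (adjusted p = 0.0758), neither called.

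The regions were compared over all 46 arrays. At day 0, infarct minus noninfarct was called for 0 of 9 genes in MRL (limma; 0 with an unadjusted p under 0.05; 0.0304% of probe sets called) and 0 in C57 (0 unadjusted; 0% called). At day 1, 1 gene was called in MRL, Selp (9.28% called), and 4 in C57, namely Selp, Icam1, Sele and Cdh5 (7.31% called), all higher in infarct tissue. Selp and Sele passed the filter mostly through day 1 infarct arrays, so their calls are given as values and support nothing on their own. The C57 values of Sele and Cdh5 were 1.45 ± 0.41 (adjusted p = 0.0257) and 0.62 ± 0.19 (adjusted p = 0.0359). Sele lost its call without infarct day 1 array 2 (0.0547) or 3 (0.154) or noninfarct day 1 array 1 (0.0746) or 3 (0.0655), and Cdh5 without infarct array 1 (0.0866) or 3 (0.0703) or any of the 4 noninfarct arrays (0.0524 to 0.093).

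At day 5, by the probe set with the highest mean, 0 genes were called between regions in MRL (2 unadjusted; 14% called) and 1 in C57, Vwf (8.53% called). Probe set 1415989_at of Vcam1 was called higher in MRL infarct than noninfarct tissue (0.96 ± 0.31, adjusted p = 0.0327), with overlapping groups, where 1448162_at was 0.77 higher (adjusted p = 0.309). Without MRL infarct day 5 array 3, Selp (1.39, adjusted p = 0.0404) and Icam1 (1.19, adjusted p = 0.0119) were called in MRL. Vcam1 in C57 was 1.26 higher in infarct tissue (adjusted p = 0.0926), and it was called without infarct array 1 (adjusted p = 0.0497) or noninfarct array 3 (adjusted p = 0.0379). The change in infarct tissue minus that in noninfarct tissue was called for 0 genes in MRL by the probe sets with the highest mean, at day 1 (1 unadjusted; 0.0761% of probe sets called) and day 5 (0 unadjusted; 0.0228% called). The second probe set of Selp was called at day 1 in MRL, as given above. In C57 it was called for 1 gene at day 1, Selp (0.175% called) and for 0 genes at day 5 (2 unadjusted; 0.137% called). At day 1 in MRL the same-numbered infarct and noninfarct arrays deviated together, and with the number as a block Icam1 (0.98, adjusted p = 0.0117) and Cdh5 (0.54, adjusted p = 0.00665) were also called between regions.

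Other genes of the same pathways give the setting. Of 22 tested genes of endothelial identity, those called in infarct tissue numbered 6 higher and 1 lower at day 1 and 4 and 2 at day 5 in MRL, and 5 and 1 at day 1 and 2 and 3 at day 5 in C57. Over all tested probe sets the share called was 21.5% at day 1 and 46.9% at day 5 in MRL and 15.5% and 42.7% in C57, so that at day 5 the list had fewer calls than the array as a whole. The largest was Plvap, a protein of the diaphragms of endothelial pores, which rose in MRL by 1.80 ± 0.46 at day 1 (adjusted p = 0.00886) and by 3.46 ± 0.46 at day 5 (adjusted p = 8.12e-06). In C57 it rose by 2.05 ± 0.49 at day 1 (adjusted p = 0.00756) and by 3.52 ± 0.49 at day 5 (adjusted p = 2.06e-05). Cldn5, of the tight junction, rose at day 1 by 1.44 ± 0.45 in MRL (adjusted p = 0.0282) and 2.00 ± 0.49 in C57 (adjusted p = 0.00815). The VEGF receptor gene Flt1 fell at day 5 by 0.92 in MRL (adjusted p = 0.00371) and by 0.79 in C57 (adjusted p = 0.0183), and Kdr, the other, fell in C57 by 0.90 at day 1 (adjusted p = 0.0205) and by 0.87 at day 5 (adjusted p = 0.0101). The list median was 0.06 at day 1 and 0.20 at day 5 in MRL and 0.21 and -0.01 in C57, against -0.00, -0.05, 0.01 and -0.00 over all tested probe sets. In noninfarct tissue 0 were called at day 1 in either strain (limma), where 0.98% of probe sets were called in MRL and 3.99% in C57. At day 5 there were 5 higher and 1 lower in MRL (24.2% of probe sets called) and 2 and 2 in C57 (21.1%).

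Among the leukocyte partners of these molecules, 3 of 7 tested ligands and integrins rose at day 1 (21.5% of probe sets called) and 5 at day 5 (46.9%) in MRL infarct tissue, and 2 (15.5%) and 6 (42.7%) in C57, with 0 lower. Itgb2, the beta chain of LFA-1 and Mac-1, rose by 4.24 ± 0.77 in MRL at day 5 (adjusted p = 0.000208) and by 3.96 ± 0.83 in C57 (adjusted p = 0.000981). Selplg, the P-selectin ligand of leukocytes, rose at day 5 by 2.79 ± 0.60 in MRL (adjusted p = 0.000901) and by 2.97 ± 0.65 in C57 (adjusted p = 0.00137). Cd44, an E-selectin ligand that fibroblasts also carry, rose at day 1 by 5.60 ± 0.46 in MRL (adjusted p = 8.98e-08) and by 4.90 ± 0.50 in C57 (adjusted p = 1.39e-06).

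Of 14 tested NF-kB feedback and inducer genes, 11 rose at day 1 in MRL infarct tissue (21.5% of probe sets called) and 7 in C57 (15.5%), with 0 lower. Ccl2, a monocyte chemokine, rose by 4.44 ± 0.53 in MRL (adjusted p = 1.05e-05) and 4.36 ± 0.58 in C57 (adjusted p = 3.07e-05), and Nfkbia, the NF-kB inhibitor that NF-kB itself induces, by 0.89 ± 0.28 in MRL (adjusted p = 0.0288) and 1.20 ± 0.30 in C57 (adjusted p = 0.0101). At day 5, 7 were higher in MRL, near the share of the array (46.9%), and 7 were higher and 1, Tnf, lower in C57 (42.7%). In the noninfarct region 0 of 13 were called at day 1 in MRL (limma; 0.98% of probe sets called) and 1 in C57 (3.99%). Of 12 listed genes of von Willebrand factor handling and clotting control, 4 were tested. Of these, Plat, Procr and Thbd rose at day 1 in both strains (21.5% of probe sets called in MRL and 15.5% in C57). Thbd, the endothelial thrombin receptor thrombomodulin, rose by 1.78 ± 0.34 in MRL (adjusted p = 0.0011) and 1.91 ± 0.36 in C57 (adjusted p = 0.00128). At day 5, 1 of the 4 was higher and 1 lower in each strain (46.9% of probe sets called in MRL and 42.7% in C57). The lower was Thbd, which fell by 1.10 in MRL (adjusted p = 0.011) and by 1.09 in C57 (adjusted p = 0.0212).

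Of 9 tested other adhesion and junction genes, 1 rose at day 1 in MRL infarct tissue (21.5% of probe sets called) and 1 rose and 1 fell in C57 (15.5%), and at day 5 the counts were 3 higher and 1 lower in MRL (46.9%) and 3 and 2 in C57 (42.7%), about the share of the array at day 5. Mcam, an adhesion molecule of endothelium and pericytes, led, with rises at day 5 of 2.73 ± 0.35 in MRL (adjusted p = 6.84e-06) and 2.21 ± 0.38 in C57 (adjusted p = 0.000191). Cd99l2, of leukocyte passage, fell at day 5 by 0.99 in MRL (adjusted p = 0.000742) and by 0.98 in C57 (adjusted p = 0.00188). Of 6 partners of VE-cadherin, 1 was called at day 1 in each strain (21.5% of probe sets called in MRL and 15.5% in C57). At day 5 there were 1 higher and 1 lower in MRL (46.9%) and 2 higher in C57 (42.7%). Vcl (vinculin) was the one called higher each time, by 0.57 to 0.78, joined at day 5 by Ctnnd1 (p120 catenin), which rose by 0.50 in C57 (adjusted p = 0.0499), while Ctnna1 (alpha-catenin) fell by 0.51 in MRL (adjusted p = 0.0236). Heart muscle and fibroblasts express several of these partners too.

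Across the 12 group means, Selp correlated at 0.91 with both Sele and Icam1, Sele with Icam1 at 0.78, Vcam1 with Aplnr at 0.72, and Sele with Aplnr at -0.66. The 12 points share the tissue and the 3 days, and the values are a description. Among 7745 genes, those closest to Selp were Plaur (0.99), Ch25h (0.99) and Atf3 (0.98), to Sele were Rel (0.98), Arc (0.97) and Yars (0.97), and to Icam1 were Pprc1, Ctdp1 and Slc7a5 (0.98 each). Closest to Vcam1 were Wipf1, Pip4k2a and Gask1b (0.98 each), and to Aplnr were Parp12 (0.96), Sh3d19 (0.95) and Gnptab (0.95). Vwf was closest to Myd88 (0.91), Fnbp4 (0.88) and Slc7a6 (0.87), Pecam1 to Carhsp1 (0.95), Eif4b (0.92) and Zbtb22 (0.91), and Cdh5 to Pgm2 (0.95), Smap1 (0.93) and Vwa1 (0.93). Icam2 had the weakest matches, with Hic1 (0.84), Rad21 (0.78) and Gng11 (0.76).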

How the data were processed

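Left ventricle RNA of 46 tissue pieces in 12 groups of strain, day and region was hybridized to Affymetrix MOE430A arrays, 1 array each, per the labels. The deposited values are linear intensity values per probe set, made by the authors with GCRMA (background correction, normalization and summary of probes) per the submitters' processing notes; its version is not given in the sources used here. Low probe sets lie near a floor in these values, so that folds from that floor depend on the scale. Of 22690 probe sets, controls were left out, leaving 22626; 20380 had 1 gene symbol, 691 several and 1555 none. The planned tests foresaw log2 or linear values: the table was linear (smallest value 1.03), and log2 was taken with no pseudocount. No detection calls were used, the number of arrays limits the precision, and array medians were 18.6 to 22.3 in linear intensity.

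A probe set was tested if it lay above its array's median in at least 3 arrays of a fit: 12834 in infarct tissue (23 arrays), 12344 in noninfarct tissue (23 arrays) and 13138 over all 46 arrays. The linear model of group means used limma 3.58.1 under R 4.3.3 (contrasts and eBayes; two-sided; Benjamini-Hochberg over the tested probe sets of each of 36 comparisons; call at an adjusted p under 0.05), and the procedure was tested on simulated data. Named genes are the 9 members in every comparison, up to 4 called members with the largest change of each list, and the 3 genes closest to each member over the 12 group means. The members and lists were chosen with earlier results of these data known.

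Alternatives were no filter, quantile normalization, 32 added before log2, the replicate number as a block, leaving out the 2 libraries that stood most apart, leaving out each array, and, chosen after seeing the data, leaving out the MRL day 1 arrays numbered 3 of both regions. Deviations of arrays with the same number in both regions correlated above 0.1 for every pair at MRL day 1 (0.337 to 0.557) and C57 day 0 (0.227 to 0.435), and not for every pair elsewhere; this pairing comes from the data and not from the labels. Promoter windows came from RefSeq (GRCm38.p6).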

Additional observations from a re-analysis of the deposited data

Results flagged for a closer look

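Of 90 cases (9 genes in 10 groups of 4 arrays), 7 had 1 array far from the other 3, by a test that chance alone passes in about 1 of 20 groups. Array 3 of MRL noninfarct tissue at day 1 had Selp at 5.29 (the others 2.44 to 2.57), Sele at 5.22 (the others 2.70 to 2.97) and Icam1 at 7.23 (the others 5.51 to 5.67). Array 3 of MRL infarct tissue at day 1 had Icam1 at 8.47, against 6.39 to 6.60 on the others, and was also the highest array of its group for Selp and Sele. Array 3 of MRL infarct tissue at day 5 had Icam1 at 5.07, against 6.54 to 6.81 on the others, and array 3 of C57 noninfarct tissue at day 5 had Selp at 3.16, against 2.38 to 2.51. These last 2 arrays are the libraries that stood apart as a whole. Array 1 of MRL noninfarct tissue at day 5 had Cdh5 at 9.03, against 9.28 to 9.32.

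The day 1 change of Selp in C57 differed between the regions: the change in infarct tissue exceeded that in noninfarct tissue by 4.27 (limma adjusted p = 0.0146). In MRL it did so by 2.92 (adjusted p = 0.117) on the same probe set and by 2.55 (adjusted p = 0.0445) on the second, 1420558_at. Both probe sets passed the filter mostly through infarct arrays at day 1. These calls are thus given as values and support nothing on their own.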

How the results depend on the processing

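Over all 36 comparisons, 298 values of the 9 genes were computed, 52 of them called, and 0 changed sign past the threshold under any alternative. Of the 52 calls, 49 were kept with quantile normalization (1 gained), 48 with 32 added before log2 (2 gained), 49 with the replicate block (12 gained), 48 without the 2 libraries that stood apart (10 gained) and 43 without the filter (0 gained), where more probe sets enter the adjustment. Without the MRL day 1 arrays numbered 3 of both regions 46 of 48 were kept and 7 gained. Leaving out each array in turn kept 295 of 400 calls and gained 29.

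Counts of called members that moved by over 1.5 times were these. Without the filter C57 infarct day 1 had 3 in place of 7, C57 noninfarct day 5 had 0 in place of 1, MRL noninfarct day 5 had 3 in place of 5, and the C57 day 5 region difference 0 in place of 1. With quantile normalization C57 noninfarct day 5 had 0, MRL noninfarct day 5 had 3 and the MRL day 1 region difference 2 in place of 1. With 32 added, MRL infarct day 5 relative to Cdh5 had 2 in place of 1. With the replicate block the region difference had 3 in place of 1 in MRL at day 1, 2 in place of 0 in MRL at day 5 and 2 in place of 1 in C57 at day 5, and the infarct change minus the noninfarct change had 1 in place of 0 in MRL at day 1, 3 in place of 1 in C57 at day 1 and 1 in place of 0 in C57 at day 5. Apart from MRL day 1, same-numbered arrays of the operated groups did not all deviate together. At C57 day 1 their correlations were -0.462 to 0.154. Arrays numbered 1, 2, 3 and 4 there had their best match at numbers 4, 1, 2 and 3 of the other region. The block thus does not join the C57 day 1 arrays that were most alike, and whether those share a heart was not tested. Without the 2 libraries that stood apart, the counts were 1 for MRL noninfarct day 1 (in place of 0), 0 for C57 noninfarct day 5, 1 for MRL minus C57 in noninfarct tissue at day 1, 3 and 2 for the MRL region difference at days 1 and 5, 1 for the C57 day 5 infarct change minus noninfarct change and 2 for MRL infarct day 5 relative to Cdh5. Without the MRL arrays numbered 3 they were 4 for C57 infarct day 5, 1 each for MRL minus C57 at day 1 in both regions, 1 for the MRL day 5 region difference and 1 for the MRL day 1 infarct change minus noninfarct change. The cause of these moves was not tested.

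Leaving out each array in turn gave 2 to 3 called members for MRL infarct day 1, 1 to 3 for day 5 and 3 to 4 for day 5 minus day 1, and 2 to 6, 2 to 4 and 4 to 5 for C57. In noninfarct tissue it gave 0 to 0, 2 to 4 and 2 to 3 in MRL, and 1 to 1, 0 to 2 and 2 to 3 in C57. MRL minus C57 had 0 to 0, 0 to 1 and 0 to 0 at days 0, 1 and 5 in infarct tissue, 0 to 0, 0 to 2 and 0 to 0 in noninfarct tissue, and the difference of the changes 0 to 0 throughout. Infarct minus noninfarct had 0 to 0, 1 to 3 and 0 to 2 at days 0, 1 and 5 in MRL and 0 to 0, 2 to 4 and 0 to 2 in C57, and the infarct change minus the noninfarct change 0 to 1 and 0 to 0 in MRL at days 1 and 5 and 0 to 1 and 0 to 0 in C57. Relative to Cdh5 the ranges were 2 to 3 and 1 to 2 in MRL and 3 to 5 and 1 to 2 in C57.

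Over all tested probe sets, counts without the 2 libraries that stood apart were 2507 against 3 for the MRL day 5 infarct change minus noninfarct change, 1352 against 18 for that of C57, 4629 against 1842 for the MRL day 5 region difference and 4258 against 1121 for that of C57. Without the filter the counts relative to Cdh5 were 16346 against 7161 for MRL day 5, 14757 against 5358 for C57 day 1 and 14639 against 5970 for C57 day 5, since probe sets at the floor then take the change of Cdh5 with its sign turned. Selp and Sele lay at the floor in most groups, which limits the size of their folds.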
